A study of Danio rerio with 5 samples.

Results

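The Hippo pathway restrains the transcriptional coactivators Yap1 and Taz (the product of *wwtr1*). In it, the kinases Stk3 and its relatives activate the Lats kinases, which phosphorylate both coactivators and keep them out of the nucleus. Coactivators that escape this control bind the TEAD transcription factors, which carry the DNA-binding domain, and switch on genes such as *ctgfa* and *cyr61*, which encode secreted CCN matrix proteins. The pathway is best known for limiting organ size, and in human neuroblastoma YAP activity has been linked to the mesenchymal cell state. Here 10 zebrafish genes of the pathway were followed by their symbols, namely the coactivators *yap1* and *wwtr1*, the TEAD genes *tead1a*, *tead1b*, *tead3a* and *tead3b*, the kinases *lats1* and *lats2*, and the targets *ctgfa* and *cyr61*. All 10 were listed among the 30647 genes of each library.

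The 5 libraries were RNA-Seq of EGFP+ cells sorted from neuroblastomas of juvenile zebrafish. Every fish carried the *dβh:MYCN* and *dβh:EGFP* transgenes, which are driven in the sympathetic lineage by the dopamine β-hydroxylase promoter, in an AB background. In the 3 *lmo1*-/- libraries (d{beta}h:EGFP;MYCN;lmo1-/- in the labels), both *lmo1* copies carried a CRISPR-Cas9 deletion in the second exon, taken from a single mutant line. In the 2 *TATA/TATA* libraries (d{beta}h:EGFP;MYCN;TATA/TATA), a TALEN knock-in had turned the G of an intronic GATA motif of *lmo1* (intron 1) into T on both copies, together with a change of neighboring bases that the knock-in oligonucleotide introduced. Wild-type *GATA/GATA* tumors were not analysed here, so neither genotype served as an unedited control. The sources do not say whether each library came from a separate fish, so p values measure only the spread between these samples.

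Between 48144549 and 55782865 reads were counted on genes per library. *lmo1* itself held 21.0 to 41.9 RPKM (reads per kb of exon, scaled to the mapped reads of the library) in the *lmo1*-/- libraries and 12.7 to 13.6 RPKM in the *TATA/TATA* libraries, as counted over all exons, so its level did not check the knockout. The sorted cells held the sympathoadrenal markers *dbh* (369 to 688 RPKM) and *th* (454 to 884 RPKM) in every library. Both were lower in *TATA/TATA* (log2 fold changes from edgeR of -1.02 and -1.0, adjusted p = 0.0047 and 0.0087), as were 6 of the 18 listed markers of this lineage in all, while 2 were higher, and their summed level was 1746 to 2541 RPKM in *lmo1*-/- and 1507 to 1600 RPKM in *TATA/TATA* libraries. Markers of other cells were also present, and their summed RPKM differed with genotype, in both directions. For scale, 19.9% of genes reaching 1 RPKM in 2 or more libraries were called higher in *TATA/TATA* and 16.7% lower. Of all genes with any read it was 15.0% and 10.4%. Counts of calls near these shares, such as the fibroblast, endothelial and erythroid ones below, are not read as a change of those cells. Of 22 macrophage markers, 21 were higher in *TATA/TATA* and the remaining one, *mfap4*, had an adjusted p of 0.105 in edgeR, while their summed level was 127 to 221 RPKM in *lmo1*-/- and 3414 to 3574 RPKM in *TATA/TATA* libraries. Epithelial markers summed to 14.7 to 18.1 and 68.8 to 79.7 RPKM, with 4 of 7 higher. Neutrophil markers summed to 27.2 to 147 and 228 to 248 RPKM (5 of 8 higher), and lymphoid markers to 3.37 to 3.57 and 21.1 to 25.8 RPKM (4 of 10 higher, *pax5* at 0). Fibroblast markers summed to 0.902 to 3.66 and 11.4 RPKM (2 of 12 higher), and endothelial markers to 1.04 to 1.34 and 4.0 to 4.48 RPKM (1 of 11 higher). Schwann and glial markers summed to 0.527 to 0.679 and 4.21 to 5.46 RPKM (2 of 8 higher, 1 lower), with the defining *sox10* at a mean of 0.00634 RPKM and 0.0323 RPKM, where its libraries overlapped. The higher lymphoid genes (*cd4-1*, *lck*, *zap70* and *il7r*) and higher Schwann and glial genes (*erbb3b* and *egr2b*) reached 1 RPKM only in *TATA/TATA* libraries. This also held for *csf1rb*, *grn2* and *slc7a7* of the macrophage list, *mpx* and *col1a1b*. Entering the tested genes in this way, none of them could have been called lower there. Interrenal markers were the other way, at 25.7 to 59.7 and 15.8 to 18.8 RPKM (2 of 9 lower, *star* and *mc2r*), and erythroid markers summed to 37.9 to 47.9 and 28.9 to 31.4 RPKM (1 of 6 lower, *hbba1*, and 1 higher, *gata1a*). Kidney tubule markers summed to 2.18 to 3.68 and 3.96 to 4.03 RPKM, and none of the 8 passed the threshold in edgeR. The part of these cells in the differences below was not tested, and in bulk samples fewer cells of a type and less RNA per cell cannot be told apart.

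The read counts of both genotypes entered edgeR's quasi-likelihood test after TMM normalization, and a positive log2 fold change means a higher level in *TATA/TATA*. Genes that reached 1 RPKM in 2 or more libraries were tested together. Of these 13484 genes, 36.6% passed an adjusted p of 0.05, 19.9% as higher and 16.7% as lower in the *TATA/TATA* libraries. These included 3 of the 10 members, *tead1a*, *tead1b* and *lats1*. The other 7 lay below that level and were read from a second fit that held each of the 25459 genes with any read, of which 25.4% passed, 15.0% as higher and 10.4% as lower. Scaling decided the split of calls. Of the calls among tested genes, 54.3% were higher in *TATA/TATA* after TMM normalization and 82.2% with the library totals behind the deposited RPKM, and the median log2 fold change moved from -0.05 to 0.41. In the second fit it moved from 0.06 to 0.55.

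Of the 10 members, 4 were higher in *TATA/TATA* (*tead1a*, *tead3a*, *lats2* and *ctgfa*), 1 was lower (*tead1b*), and 5 did not pass the threshold. Among the 3 tested members this was 1 higher and 1 lower. Among the 7 below the filter it was 3 higher. None of the 7 was lower in edgeR, DESeq2 or limma on log2(RPKM + 0.1), also at an unadjusted p under 0.05. Of all genes with any read, 10.4%, 13.3% and 4.02% were lower there at the adjusted threshold. These shares include the genes at the level for testing, and the share among genes below it alone was not computed. *wwtr1*, *tead3a*, *tead3b* and *ctgfa* had at most 10 reads in any *lmo1*-/- library, where a lower level in *TATA/TATA* could hardly be seen. The RPKM of the genotypes did not overlap for 8 members, 7 higher and 1 lower in *TATA/TATA*. Of the tested genes 68.3% were apart, 54.2% as higher and 14.1% as lower, and of all genes with any read 58.4%, 47.2% and 11.2%.

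**Figure D1:**
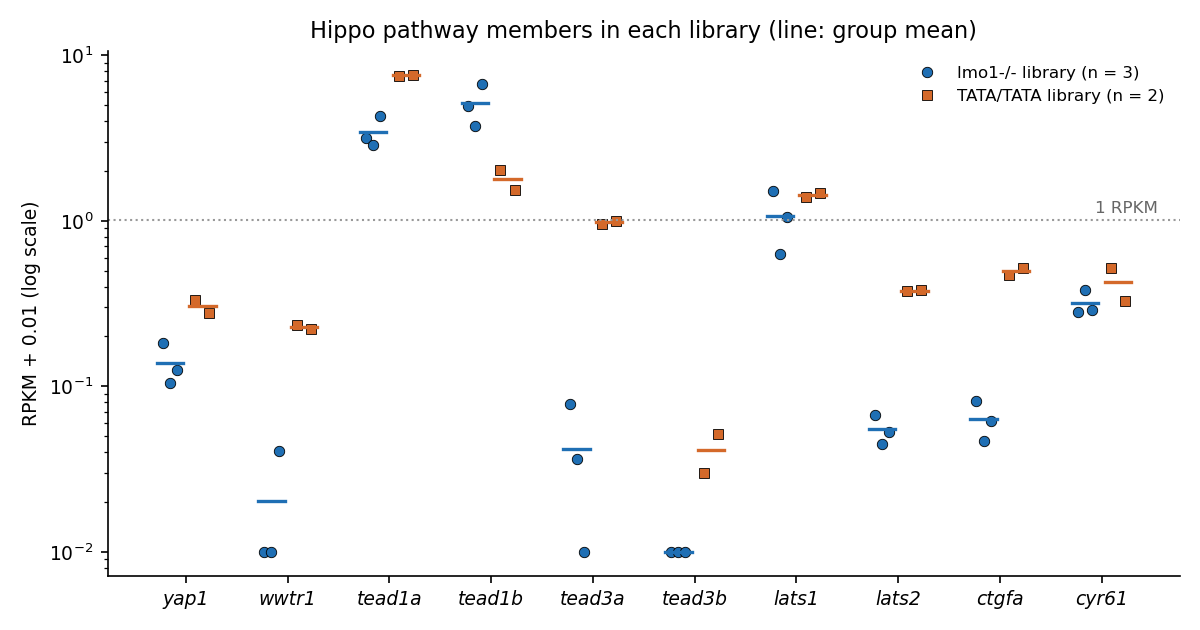
RPKM of each member in every library on a log axis, with 0.01 added so that values of 0 can be drawn. Circles are the 3 *lmo1*-/- libraries, squares the 2 *TATA/TATA* libraries and short lines the group means; *tead1b* is the member whose *TATA/TATA* squares lie below all its circles, while *lats1* and *cyr61* overlap.

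Of the TEAD genes, *tead1a* and *tead1b* were more abundant than both coactivators in every library, whereas *tead3b* and, in *lmo1*-/-, *tead3a* lay below *yap1*. *tead1a*, one of a pair of zebrafish copies of *TEAD1*, held 3.17, 2.85 and 4.29 RPKM in *lmo1*-/- libraries, against 7.47 and 7.64 RPKM in *TATA/TATA* libraries. Both *TATA/TATA* libraries lay above all *lmo1*-/- libraries. The means were 3.44 ± 0.758 RPKM (SD, n = 3) and 7.55 ± 0.116 RPKM (SD, n = 2). By edgeR the log2 fold change was 0.69 after TMM normalization (SE of 0.18, adjusted p = 0.026) and 1.13 with the deposited totals, which is 0.74 and 0.73 above the median of all tested genes in the same fits. The call was lost without *lmo1*-/- replicate 2 (0.65; adjusted p = 0.051 from edgeR), without *TATA/TATA* replicate 1 (0.72; adjusted p = 0.20) and without *TATA/TATA* replicate 2 (0.66; adjusted p = 0.23). Over its 15 alternatives the log2 fold change ranged from 0.64 to 1.16 and the adjusted p from 0.0018 to 0.23.

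*tead1b*, the other copy, ran the opposite way. It held 4.92, 3.74 and 6.71 RPKM in *lmo1*-/- libraries, against 2.03 and 1.52 RPKM in *TATA/TATA* libraries. Every *lmo1*-/- library lay above both *TATA/TATA* libraries, with means of 5.12 ± 1.5 RPKM (SD, n = 3) and 1.77 ± 0.362 RPKM (SD, n = 2). The log2 fold change from edgeR was -1.97 with an SE of 0.23 (adjusted p = 0.0018), or -1.53 with the deposited totals. It was the 1 member that passed the threshold with each library left out in turn (-2.18 to -1.78). It ranged from -2.18 to -1.12 over its 14 alternatives, with adjusted p values up to 0.024.

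The exchange between both copies can be read without any library scaling, since their ratio is taken within a library. *tead1a* over *tead1b* was 0.645, 0.762 and 0.640 in the *lmo1*-/- libraries and 3.68 and 5.03 in the *TATA/TATA* libraries, in RPKM. The groups were far apart compared with their spread, with mean log2 ratios of -0.56 ± 0.14 (SD, n = 3) and 2.1 ± 0.32 (SD, n = 2), a difference of 2.66 on the log2 scale or 6.33-fold. With 3 and 2 libraries, an exact permutation test reaches 0.1 at the lowest. The exon length of *tead1b* in the files is 9055 bp and that of *tead1a* 2082 bp, which sets the level of the ratio in RPKM and not its difference between genotypes. In raw reads the ratio was 0.147 to 0.175 and 0.846 to 1.16.

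*tead3a* was close to 0 in *lmo1*-/- tumors, with 8, 3 and 0 reads, or 0.0684, 0.0264 and 0 RPKM. In both *TATA/TATA* libraries it held 131 and 130 reads, or 0.953 and 0.986 RPKM. The pooled reads per mapped read were 31.7 times higher in *TATA/TATA* (95% exact interval, 17.4 to 64.3, counting error only). The log2 fold change from edgeR was 4.40 (SE, 0.97; adjusted p = 0.014), and it was 4.38 (adjusted p = 0.051) without *lmo1*-/- replicate 2, 4.42 (adjusted p = 0.092) without *TATA/TATA* replicate 1 and 4.35 (adjusted p = 0.10) without replicate 2. The fold itself moved with the *lmo1*-/- library left out, to 5.66 without replicate 1 and 3.79 without replicate 3, both past the threshold. Over its 14 alternatives the adjusted p ran from 6.3e-05 to 0.10. *tead3b* had 0 reads in the *lmo1*-/- libraries, which allows up to 3 reads or 0.0213 to 0.0243 RPKM, and 3 and 6 reads in *TATA/TATA*. Its adjusted p was 0.14 by edgeR and ran from 0.017 to 0.48 over its 14 alternatives, and with values this near the limit no fold is given.

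Summed over the 4 TEAD genes per kb of exon, the genotypes overlapped. The sum was 8.16, 6.62 and 11.0 RPKM in *lmo1*-/- and 10.5 and 10.2 RPKM in *TATA/TATA* libraries, and on the TMM scale it was 11.5 to 15.0 and 11.5 to 11.6 normalized reads per kb of exon, scaled like RPKM. Sum and shares depend on the exon lengths in the files, 9055 bp for *tead1b* and 2082 bp for *tead1a*. In reads, *tead1b* held 2947, 2174 and 4447 in *lmo1*-/- and 1430 and 1025 in *TATA/TATA* libraries. For *tead1a* these were 437, 381 and 654 against 1210 and 1185, and a sum of reads was not compared. On the RPKM scale, the makeup differed. *tead1b* took 60.3%, 56.5% and 61.0% of the TEAD RPKM in *lmo1*-/- libraries and 19.4% and 14.9% in *TATA/TATA* libraries, whereas *tead1a* took 38.9% to 43.1% and 71.3% to 75.0%. *tead3a* took at most 0.838% of it in *lmo1*-/- and 9.09% and 9.69% in *TATA/TATA* libraries.

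**Figure D2:**
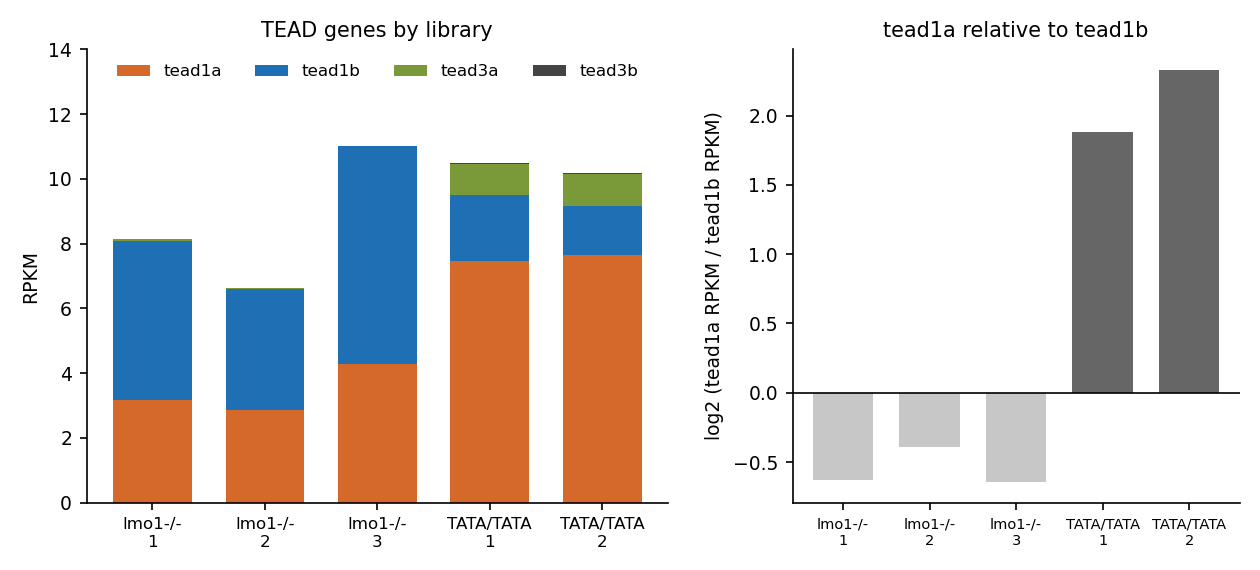
Left, stacked RPKM of the TEAD genes in each library; right, the log2 ratio of *tead1a* to *tead1b* RPKM in the same libraries (light bars, *lmo1*-/-; dark bars, *TATA/TATA*). The sums run from 6.62 to 11.0 RPKM, while the ratio lies below 0 in all 3 *lmo1*-/- libraries and at 1.88 and 2.33 in the *TATA/TATA* libraries.

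The coactivators themselves were scarce in both genotypes. *yap1* held 45, 24 and 33 reads in the *lmo1*-/- libraries and 99 and 78 reads in the *TATA/TATA* libraries. In RPKM these were 0.173, 0.0951 and 0.115 against 0.324 and 0.266, so that the groups did not overlap although every value was low. Tested genes had to reach 1 RPKM in 2 or more libraries. A low rank among them was thus set in advance for *yap1*, which did not. Its log2 fold change from edgeR was 0.71 with an SE of 0.48 (adjusted p = 0.32), and 2 SE on either side run from -0.26 to 1.68. It ranged from 0.20 to 1.21 over its 14 alternatives, of which limma on log2(RPKM + 1) passed the threshold (adjusted p = 0.024, within a range of 0.024 to 0.73).

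*wwtr1*, which encodes Taz, had 0, 0 and 4 reads in the *lmo1*-/- libraries, against 31 and 28 reads in the *TATA/TATA* libraries. In RPKM these were 0, 0 and 0.0307 against 0.224 and 0.211, where a count of 0 allows up to 0.0230 to 0.0262 RPKM. The pooled reads per mapped read were 19.7 times higher in *TATA/TATA* (95% exact interval, 7.30 to 74.7, counting error only). The call changed with the setting and with 1 library. By edgeR its log2 fold change was 3.82 with an SE of 1.22 (adjusted p = 0.056), and 7.55 (adjusted p = 0.011) without *lmo1*-/- replicate 3, a value that rests on counts of 0 in the 2 libraries left. DESeq2 (4.01; adjusted p = 0.044) and edgeR with the deposited totals (4.22; adjusted p = 0.037) also placed it past the threshold, and over its 14 alternatives the adjusted p ran from 0.0010 to 0.26. Together, *yap1* and *wwtr1* summed to 0.0951 to 0.173 RPKM in *lmo1*-/- and 0.477 to 0.547 RPKM in *TATA/TATA* libraries. The TEAD sum was 47.2 to 75.7 times the coactivator sum in the first and 19.1 to 21.4 times in the second.

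By the root mean square difference of log2 normalized CPM (counts scaled to library size) over the 5 libraries, each gene centred on its mean, the tested genes most like *yap1* were *gtf2h1* (0.0664), *eftud1* (0.0739) and *ss18l2* (0.0755). With 5 libraries this likeness was common, as 585 tested genes lay within 0.25 of *yap1*. The genes most like *wwtr1* were *apoc1* (0.0978), *tacc3* (0.117) and *arg2* (0.131), and 23 lay within 0.25. All 3 shared with *wwtr1* a value in *lmo1*-/- replicate 3 above those of the other *lmo1*-/- libraries (3.54 RPKM for *apoc1* against 0.95 and 0.880). This trait followed from their choice by likeness to *wwtr1*, whose own value there rests on 4 reads.

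The Lats kinases, which phosphorylate the coactivators, were unlike each other. *lats1* was the more abundant, at 1.5, 0.621 and 1.04 RPKM in *lmo1*-/- libraries, against 1.39 and 1.47 RPKM in *TATA/TATA* libraries. The *lmo1*-/- libraries spanned the *TATA/TATA* values. Its log2 fold change from edgeR was -0.01 with an SE of 0.34 (adjusted p = 0.99), 2 SE reach from -0.68 to 0.67, and it turned positive with several scalings and tools, at 0.44 with the deposited totals.

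*lats2* held 34, 20 and 28 reads against 253 and 246, or 0.0575, 0.0349 and 0.0429 RPKM in *lmo1*-/- and 0.364 and 0.370 RPKM in *TATA/TATA* libraries. Both *TATA/TATA* libraries stood well clear of all *lmo1*-/- libraries. The log2 fold change from edgeR was 2.53 with an SE of 0.40 (adjusted p = 0.0034). The call held without any single *lmo1*-/- library, and was lost without *TATA/TATA* replicate 1 (2.55; adjusted p = 0.063) or replicate 2 (2.51; adjusted p = 0.069), when a lone library is assumed to vary like the rest. The adjusted p ran from 1.4e-08 to 0.069 over its 14 alternatives. *lats1* exceeded *lats2* 17.8- to 26.1-fold in RPKM in *lmo1*-/- libraries and 3.81- and 3.98-fold in *TATA/TATA* libraries.

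Of the targets, *ctgfa*, which encodes a CCN matrix protein and is among the most used readouts of YAP activity, had 10, 5 and 8 reads in *lmo1*-/- and 76 and 80 reads in *TATA/TATA* libraries. These were 0.0715, 0.0368 and 0.0517 RPKM against 0.462 and 0.508 RPKM, without overlap. The log2 fold change from edgeR was 2.68 with an SE of 0.57 (adjusted p = 0.012), and leaving out 1 library at a time moved it within 2.55 to 2.95. Without *TATA/TATA* replicate 1 or 2 the adjusted p was 0.14 or 0.18, within a range of 0.00041 to 0.18 over its 14 alternatives. *cyr61*, its relative, did not follow. It held 0.271, 0.371 and 0.277 RPKM in *lmo1*-/- and 0.512 and 0.319 RPKM in *TATA/TATA* libraries. The second *TATA/TATA* library lay within the *lmo1*-/- range, and the log2 fold change from edgeR was -0.08 with an SE of 0.49 (adjusted p = 0.92), or 0.44 with the deposited totals. Both targets stayed under 1 RPKM in every library. The difference between *ctgfa* and *cyr61* was not tested.

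**Figure D3:**
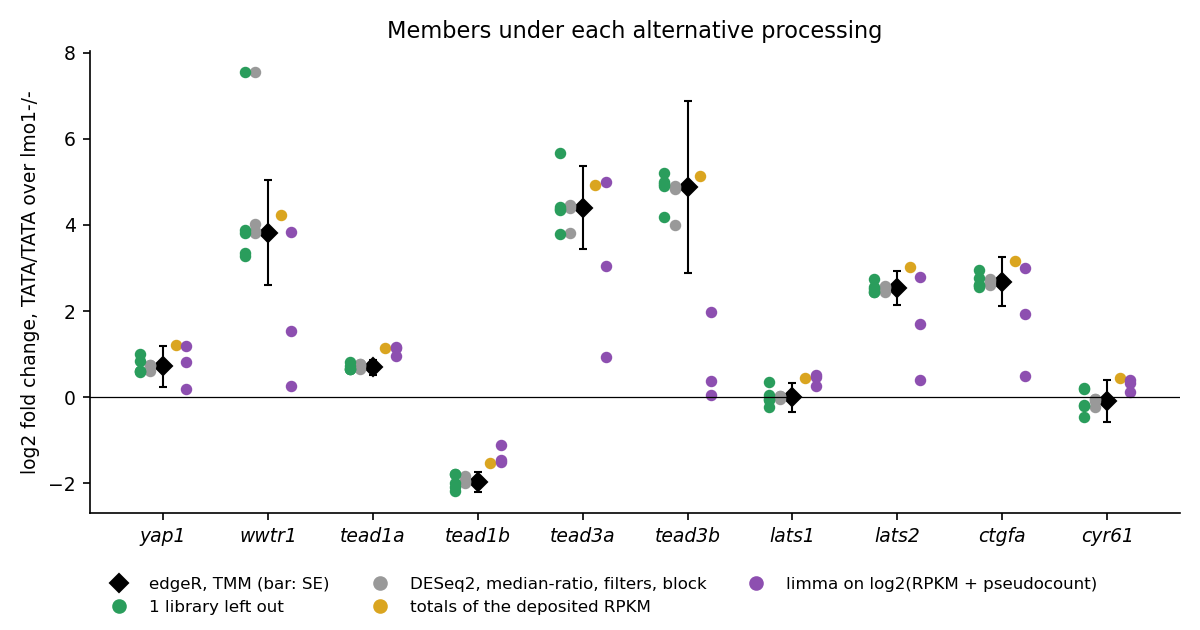
Log2 fold change of each member, *TATA/TATA* over *lmo1*-/-. Diamonds with bars give edgeR after TMM normalization with its SE, and circles the alternatives (colors as in the key). *tead1b* stays below 0 and *tead1a*, *tead3a*, *lats2* and *ctgfa* above 0 throughout. Also above 0 throughout are *yap1*, *wwtr1* and *tead3b*, which did not pass the threshold in the main fit. *lats1* and *cyr61* fall on both sides, and the values of *tead3b* rest on counts of 0 in *lmo1*-/-.

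The wider pathway was examined in 115 further genes sorted by role, of which 101 were listed in the files and 60 reached the level for testing. Of these 60, 6 were higher and 9 lower in *TATA/TATA*, against 19.9% and 16.7% of all tested genes. Their median log2 fold change was -0.06 and that of all tested genes -0.05. Of the 41 below the level, of which 3 had no read in any library, 3 were higher and 1 lower. In the second fit, which also held the tested genes, the shares were 15.0% and 10.4%. Over both levels, 9 of the 101 listed genes were higher and 10 lower, a split that turned to 20 higher and 3 lower with the deposited totals. Every named difference among these genes was lost without *TATA/TATA* replicate 1 or without replicate 2 or both, with the exceptions of *amot*, *gadd45ba* and *tgfb2*.

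In the kinase cassette and its activators, 3 of 19 tested genes were higher and 5 lower. *stk3*, the upstream Hippo kinase, had the highest mean of the list over the 5 libraries, though not within either genotype, at 7.22 to 9.98 RPKM in *lmo1*-/- and 17.7 and 20.5 RPKM in *TATA/TATA* libraries (log2 fold change, 0.67; adjusted p = 0.038 from edgeR). Its call was also lost without *lmo1*-/- replicate 3 and without the filter. *mob1a*, which encodes a Lats-activating adaptor, was higher too, at 5.60 to 7.46 and 20.5 to 21.5 RPKM (1.16; adjusted p = 0.0081), as was the kinase gene *taok3a* (0.67; adjusted p = 0.026). The scaffold gene *sav1* was lower, at 3.15 to 3.72 RPKM against 2.15 and 2.25 RPKM (-1.13; adjusted p = 0.0047), and so was a second adaptor gene, *mob1ba*, at 9.77 to 15.8 and 6.48 to 7.30 RPKM (-1.34; adjusted p = 0.0065). With the deposited totals *sav1* was no longer past the threshold. *nf2a* and *nf2b*, the copies of the Merlin gene and named after their values were seen, were lower by -0.96 and -0.60 on the log2 scale (adjusted p = 0.030 and 0.029 from edgeR), and each call was lost in 8 of 14 alternatives. These were the deposited totals, limma with each pseudocount, *lmo1*-/- replicate 3 or either *TATA/TATA* library left out and, in addition, *lmo1*-/- replicate 2 left out for *nf2a* and the replicate block for *nf2b*. Both directions thus occurred among the MOB adaptor genes, and also between the kinase gene *taok3a* and its copy *taok3b*. The latter, named after its values were seen, was lower (-0.93; adjusted p = 0.044 from edgeR), although its RPKM overlapped between genotypes. Its call was lost under the deposited totals.

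Among the Lats antagonists and the STRIPAK phosphatase complex, 1 of 10 tested genes was lower, the PP2A scaffold gene *ppp2r1ba*, at 66.7 to 85.0 RPKM against 57.2 and 62.1 RPKM (-0.80; adjusted p = 0.0075 from edgeR), and not with the deposited totals. *ppp2cb*, a PP2A catalytic subunit gene, was the most abundant at 92.3 to 115 RPKM over all libraries, with a log2 fold change of -0.24 (adjusted p = 0.25) that was 0.22 with the deposited totals. Below the level for testing, *ajuba*, a LIM protein gene that restrains Lats and named after its values were seen, held 0.0165 to 0.0480 RPKM and 0.234 and 0.310 RPKM (2.53; adjusted p = 0.020).

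Among the partners of the coactivators and TEADs, 1 of 13 tested genes was higher and 1 lower. *vgll4b*, whose mammalian counterpart competes with YAP for TEAD, held 1.53, 0.572 and 0.870 RPKM in *lmo1*-/- and 3.45 and 3.14 RPKM in *TATA/TATA* libraries (1.28; adjusted p = 0.044 from edgeR), a call also lost without *lmo1*-/- replicate 2 or 3. Only replicate 1 exceeded 1 RPKM in *lmo1*-/-, so *vgll4b* reached the level for testing through the *TATA/TATA* libraries, where it was higher. *ywhag1*, a 14-3-3 gene, held 12.5, 4.33 and 4.13 RPKM against 1.05 and 1.21 RPKM (-3.09; adjusted p = 0.011), and its log2 fold change was -2.37 without *lmo1*-/- replicate 1, the highest library. *ywhaz*, another 14-3-3 gene and the most abundant of the list, held 174 to 234 RPKM and 241 RPKM in each *TATA/TATA* library (-0.23, or 0.23 with the deposited totals; adjusted p = 0.36). *amot*, which encodes the YAP-binding angiomotin and was named after its values were seen, had 6, 2 and 3 reads in *lmo1*-/- and 227 and 229 reads in *TATA/TATA* libraries. That is 55.4 times as many reads per mapped read (95% exact interval, 30.7 to 112, counting error only). The log2 fold change was 5.26 from edgeR (adjusted p = 0.0006). It stayed positive, from 0.55 to 5.83, over its 14 alternatives, of which the fit without the filter was its main fit.

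None of the 6 tested polarity and cadherin genes passed the threshold in edgeR with TMM normalization and all libraries, where 0 had an unadjusted p under 0.05, and none in DESeq2, where 1 did (*mpp5a*). *mpp5a* passed the threshold in limma on log2(RPKM + 0.1) (adjusted p = 0.024) and in edgeR with the deposited totals, and *mpp5a* and *dchs1b* did in edgeR without *lmo1*-/- replicate 1. Both were named after their values were seen. The most abundant, *scrib*, a polarity scaffold gene, held 4.29 to 8.0 RPKM and 5.75 and 5.80 RPKM. Below the level for testing, *dlg1*, another polarity scaffold gene, held 0.141 to 0.181 RPKM and 0.998 and 1.1 RPKM (2.19; adjusted p = 0.0024 from the second edgeR fit). The cadherin gene *fat1b*, named after its values were seen, was lower, at 0.282 to 0.385 RPKM and 0.197 and 0.216 RPKM (-1.19; adjusted p = 0.022). Its call was lost with the deposited totals, in limma with each pseudocount and without *lmo1*-/- replicate 2.

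Of 14 tested target genes, 2 were higher and 4 lower, with *nf2a* and *nf2b* among the latter. *gadd45ba*, a stress-response gene, had the highest mean over the 5 libraries and within *TATA/TATA*, but not within *lmo1*-/-, at 6.42, 1.53 and 4.40 RPKM in *lmo1*-/- and 66.6 and 84.8 RPKM in *TATA/TATA* libraries (3.78; adjusted p = 0.0031 from edgeR). *f3b*, a tissue factor gene, had 2, 1 and 21 reads and 296 and 574 reads (5.25; adjusted p = 0.0073), with a log2 fold change of 7.38 without *lmo1*-/- replicate 3. It reached the level for testing only through the *TATA/TATA* libraries, at 2.83 and 5.72 RPKM, so it could not have been counted as lower among tested genes. Its call was lost without *TATA/TATA* replicate 2 (4.67; adjusted p = 0.052 from edgeR). The ligand gene *tgfb2* was lower, at 2.12 to 3.06 RPKM and 0.641 and 0.718 RPKM (-2.39; adjusted p = 0.0018), and *gadd45ab* likewise, at 14.6, 17.1 and 41.1 RPKM against 8.68 and 9.96 RPKM (-1.79; adjusted p = 0.019), though the latter not with the deposited totals. In turn, *tgfb2* reached the level for testing only through the *lmo1*-/- libraries. The genes closest to the members, *ctgfb*, *cyr61l1* and *cyr61l2*, stayed at or under a mean of 0.0503 RPKM in both genotypes, and none of them passed the threshold.

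**Figure D4:**
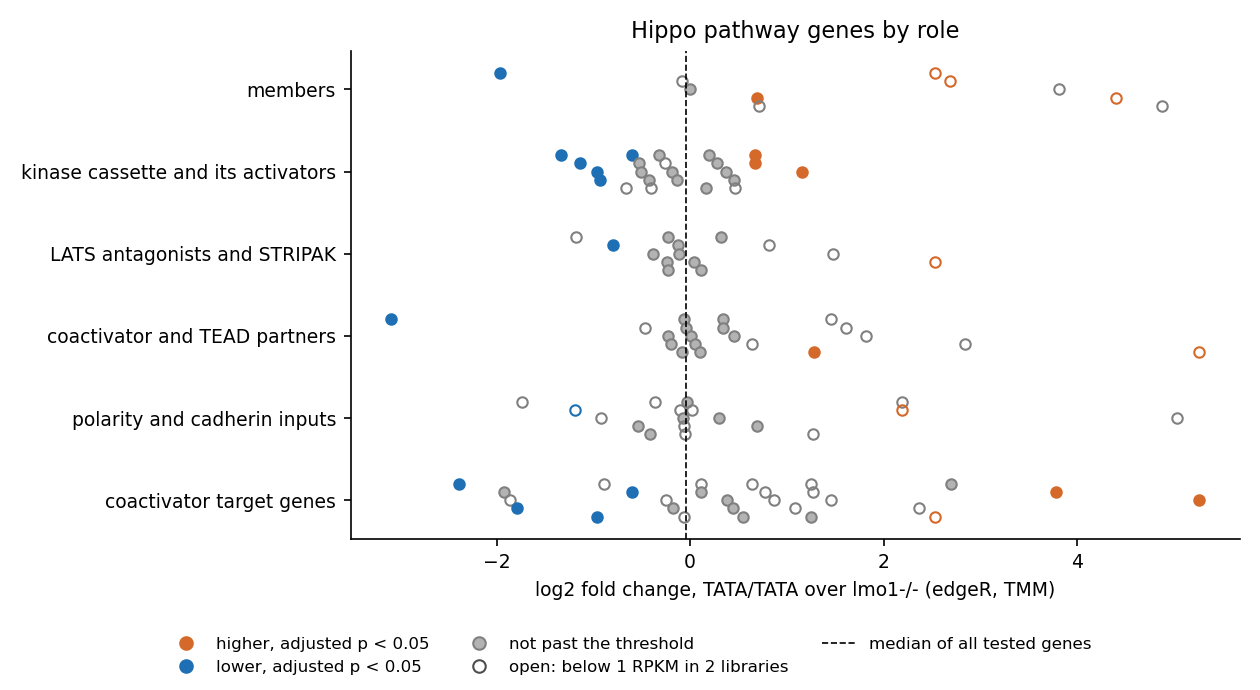
Log2 fold change (edgeR, TMM) of the members and of the other pathway genes by role; a gene in more than 1 list is drawn in each. Orange and blue points passed the adjusted threshold as higher or lower in *TATA/TATA*, grey points did not, open points lie below the level for testing and the dashed line marks the median of all tested genes at -0.05.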

How the data were processed

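The authors used hisat2 2.1.0 to align paired-end reads to danRer10 (GRCz10), and htseq-count in reverse-stranded mode for reads per Ensembl gene name; how reads shared by close copies such as *tead1a* and *tead1b* were handled is not given in the sources used here. Per library, the deposited files hold the raw count, the exon length and the RPKM the authors computed from mapped reads.

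edgeR 4.0.16 (TMM, quasi-likelihood F-test, two-sided, Benjamini-Hochberg over all genes of a fit) in R 4.3.3 gave the main values, for genes reaching 1 RPKM in 2 or more libraries; lower genes took theirs from a second fit of every gene with any read. SE is the log2 fold change over the root of F. Pooled ratios carry exact (Clopper-Pearson) 95% intervals, scipy 1.17.1, per mapped read. The median of a list is given beside that of all genes, without a list test. Alternatives were limma 3.58.1, DESeq2 1.42.0, other scalings and filters, the study's threshold, a replicate block and each library left out. The fits were also run on simulated counts. These gave both genotypes the same spread, unlike the libraries here, so that run does not measure the error of these calls.

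The members and lists were chosen with earlier results of these data known. Named from the other lists were up to 3 higher and 2 lower genes past the threshold by size of change (libraries apart, mean of at least 1 RPKM in a genotype), and the most abundant. Library pairs within a genotype differed beyond sampling noise, and not to the same extent. The median chi-square per gene was 19.2 to 24.8 for the *lmo1*-/- pairs and 2.17 for the *TATA/TATA* pair, where sampling alone gives 0.455. These pairs were scaled by total counts and not by TMM. The TMM factors were 0.848, 0.766 and 0.963 in *lmo1*-/- and 1.28 and 1.25 in *TATA/TATA* libraries. The part of this scaling in the chi-square values was not tested. No coordinates or sequences were used here.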

Additional observations from a re-analysis of the deposited data

How the results depend on the processing

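Of 430 single-gene values over 15 alternatives, 333 kept their direction and side of the threshold, some of them necessarily. For genes below the level for testing, the fit without the filter was the main fit. The study's threshold, on unadjusted p and fold change, was applied to the main fit. There no direction could change, and no call could be lost, as every called gene here exceeded its fold-change limit. Of the other values, 63 lost and 11 gained the call, and 23 changed sign, all of the latter in genes not past the threshold (*lats1*, *cyr61*, *ppp2cb* and *ywhaz*). With the deposited totals these were 0.44, 0.44, 0.22 and 0.23, with limma on log2(RPKM + 0.1) 0.48, 0.33, 0.23 and 0.24, with a pseudocount of 1 they were 0.26, 0.11, 0.22 and 0.24, and with 0.01 they were 0.52, 0.40, 0.23 and 0.24. *lats1* was also 0.0209 with DESeq2, 0.0208 with median-ratio factors, 0.0102 with the replicate block, and -0.22 to 0.35 with a library left out; *cyr61* was -0.45 to 0.21 there. The median of the tested members, -0.01, became 0.44 with the deposited totals, 0.48, 0.26 and 0.52 with limma, 0.77 (*tead1a* alone) at a mean of at least 5 RPKM, and -0.22 to 0.35 with a library left out.

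At a mean of at least 5 RPKM, 1 member was higher and 0 lower, as the others had no value there. Of the 6173 genes in that fit, 868 were higher and 960 lower, with 3 and 3 of the other pathway genes. Limma called 4308, 4581 and 4206 of the tested genes higher and 906, 941 and 887 lower with pseudocounts of 0.1, 1 and 0.01, and 27, 28 and 26 of the other pathway genes, those below the level for testing included here and below, higher and 3, 4 and 3 lower. The deposited totals left 869 of the tested genes lower, and 20 pathway genes higher and 3 lower. With a library left out, 0 to 5 members were higher and 1 lower, 1405 to 3355 of the tested genes higher and 446 to 3101 lower, and 3 to 16 pathway genes higher and 1 to 9 lower. The lowest counts came without a *TATA/TATA* library (0 members higher in edgeR each time), where the lone library left is assumed to vary like the others. The cause of the other shifts was not tested.

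Replicates 1 and 2 share numbers across genotypes, and their deviations from the group means had an r across genes of 0.012 and -0.020. With 2 *TATA/TATA* libraries the deviations of 1 mirror those of the other, so these values cannot settle whether the number is a pairing. The libraries were taken as unpaired. In the replicate block, *lmo1*-/- replicate 3 has no counterpart and is absorbed by its own term, so fold changes come from replicates 1 and 2. The setting thus comes close to leaving that library out. With it, 5 members were higher and 1 lower, and 3012 and 2322 of all tested genes. Among the 5 was *wwtr1* at 7.54, which rests on counts of 0 in *lmo1*-/- replicates 1 and 2. Values under 3 reads, as for *wwtr1* and *tead3b* in *lmo1*-/-, are limited by depth.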

Other observations

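The exchange between *tead1a* and *tead1b* had counterparts among other duplicated genes of the pathway. All 18 pairs of copies with both members at the level for testing were examined after the data had been seen, as ratios of RPKM within a library, which no library scaling can alter. The genotypes did not overlap in 10 of the 18 pairs. Among single tested genes, where library scaling enters, 68.3% were apart. The share over all duplicated genes was not computed, so whether the pairs of this pathway stand out was not tested. The median absolute difference of the mean log2 ratio between genotypes was 0.44, and in 5 pairs it exceeded 1. *tead1a* over *tead1b* was the second largest at 2.66.

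The largest was *ywhag1* over *ywhag2*, both 14-3-3 genes, with ratios of 0.411, 0.142 and 0.156 in *lmo1*-/- and 0.0253 and 0.0301 in *TATA/TATA* libraries. *gadd45aa* over *gadd45ab* was 0.364, 0.400 and 0.0779 against 1.20 and 1.1. *mob1ba* over *mob1bb*, which encode Lats-activating adaptors, was 1.48, 1.66 and 2.19 against 0.555 and 0.596, so that the more abundant copy differed between genotypes. *taok3a* over *taok3b* was 0.808, 1.18 and 1.1 against 2.61 and 3.51. By contrast, *ywhaba* over *ywhabb* (0.632 to 0.726 and 0.665 to 0.728) and *ppp2ca* over *ppp2cb* (0.177 to 0.241 and 0.206 to 0.225) overlapped.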
